A study of Ovis aries with 9 samples.

Results

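SMAD proteins carry bone morphogenetic protein (BMP), activin and transforming growth factor beta signals from the cell surface to the nucleus, and the ID genes are among the best known targets that BMP signals switch on. BMP receptors phosphorylate SMAD1 and SMAD5, activin and TGF-beta receptors phosphorylate SMAD2 and SMAD3, and each pair enters the nucleus with the shared partner SMAD4. SMAD6 and SMAD7 are inhibitors that the pathway induces against itself. ID1, ID2 and ID3 encode small helix-loop-helix proteins without a DNA-binding region, which hold the E proteins (TCF3, TCF4 and TCF12) away from DNA. In the sheep ovary this pathway is of interest because the FecB mutation lies in BMPR1B, a type I BMP receptor, and raises the ovulation rate of its carriers.

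These 10 genes, SMAD1 to SMAD7 and ID1 to ID3, were taken by symbol from a table of 27174 rows of read counts. They occupied 13 rows, because SMAD1, SMAD3 and SMAD5 each had a plain row and a suffixed row (SMAD1.1, SMAD3.1 and SMAD5.1). SMAD7 had no row of its own symbol and was found by its gene number as LOC101111414. One row stood for each gene, the row with the most reads. For SMAD1 that was SMAD1.1, with 377 to 993 reads in a library against 0 to 8 in the plain SMAD1 row. For SMAD3 and SMAD5 it was the plain row, beside 13 to 83 reads in SMAD3.1 and 1 to 56 in SMAD5.1. All 10 chosen rows passed the filter on low counts, as did 16871 of all rows. What the suffix stands for is not given in the sources used here.

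Whole ovaries bearing ovulation points, as labelled, were taken from 9 adult ewes, with 1 RNA-Seq library per ewe. The low-fecundity control was a group of 3 Dorset ewes labelled wild type (D4, D5 and D6). The Small Tail Han breed gave 3 ewes homozygous for the FecB mutation (FecBBFecBB, called Han BB, animals W1, W2 and W4) and another 3 without it (FecB+ FecB+, called Han ++, animals W6, W7 and W8). Every ewe had received a progestagen sponge and pregnant mare serum gonadotropin to synchronize estrus, and was killed soon after the following spontaneous estrus. Han BB against Han ++ compares FecB genotypes within 1 breed, Han ++ against Dorset compares breeds, and in Han BB against Dorset the breed and the genotype differ together.

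Between 10803913 (W8) and 20992535 (W7) reads were counted per library, and W8 and D4 (11716565) were the shallowest. 1 row, LOC101101865, took 14.9% of the reads of D4 and 7.69% of those of W8. W4 and D6 came from different breeds but were more like each other (Spearman's rho 0.978 across rows) than either was like any other library (0.870 to 0.955), and both lay above the other 7 libraries in 18.6% of tested rows and below them in 17.2%, so results of the SMAD and ID genes that rest on them are given with and without them. In whole ovary, fewer cells of a type and less RNA per cell cannot be told apart. Summed markers of oviduct secretory cells were at 388 to 727 CPM (counts scaled by library size) in Dorset, from 870 to 1142 in Han BB and from 804 to 1884 in Han ++, and those of theca cells at 166 to 245, 96.6 to 156 and 94.7 to 184. Endothelial markers, which matter here because vessels are a known site of ID1, ID3 and SMAD6 expression, overlapped among the groups at 813 to 924, 757 to 947 and 701 to 838. The part of these cell types in the results below was not tested.

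None of the 10 genes passed the test in any of the 3 comparisons (edgeR's quasi-likelihood test, Benjamini-Hochberg adjusted p under 0.05 with a fold change of more than 1.5 either way). None did when any difference among the 3 groups was asked for (adjusted p under 0.05 without a fold threshold). The background was as sparse. 0% of all tested rows passed in Han BB against Dorset, 0.00593% (1 row) in Han ++ against Dorset, 0% in Han BB against Han ++ and 0% in the test of any difference. At an unadjusted p under 0.05 the count was also 0 of 10 genes in each comparison, where 4.99%, 5.27% and 1.97% of all rows lay, and 0 of 10 in the test of any difference, where 3.94% lay. DESeq2 and limma voom called none of the 10 either, and the lowest unadjusted p by limma voom, 0.0494, was that of SMAD3 in Han BB against Dorset. Groups did not overlap for 0 of 10 genes in Han BB against Dorset and in Han ++ against Dorset, where 8.79% and 11.1% of all rows were so separated, and for 2 of 10 (SMAD3 and SMAD5) in Han BB against Han ++, where 9.38% were. With the suffixed rows added to their plain rows, 1 of 10 remained apart, SMAD5.

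Of the SMADs that BMP receptors activate, SMAD1 was read at nearly the same mean level in all groups. The SMAD1.1 row stood at 36.6, 42.0 and 48.6 CPM in D4, D5 and D6, at 43.7, 32.0 and 51.4 CPM in W1, W2 and W4, and at 37.8, 44.9 and 41.5 CPM in W6, W7 and W8. All 3 groups overlapped. The Han BB to Dorset fold was 1.00 with a 95% interval from 0.67 to 1.48, and the Han BB to Han ++ fold was 1.02 (0.69 to 1.52). A rise of 1.5-fold lay just outside the first interval and just inside the second.

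SMAD5, its partner, varied more. It was counted at 65.9, 85.9 and 124 CPM in D4, D5 and D6, at 85.4, 74.9 and 112 CPM in W1, W2 and W4, and at 69.9, 74.1 and 66.3 CPM in W6, W7 and W8. Every Han BB ewe lay above every Han ++ ewe, with W2 only just above W7, while Dorset spanned both. Such separation upward occurred in 4.8% of all tested rows. The log2 fold change of Han BB against Han ++ was 0.37 (SE 0.29, edgeR unadjusted p = 0.225, adjusted p = 0.999), and without W4 and D6 it was 0.19.

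The activin and TGF-beta SMADs behaved unlike each other. SMAD2 stood at 142, 150 and 189 CPM in D4, D5 and D6, at 161, 148 and 159 CPM in W1, W2 and W4, and at 156, 148 and 118 CPM in W6, W7 and W8. The Han BB ewes were close together, with an SD of 4.44% of their mean, and lay within the range of the Dorset ewes. SMAD3, which can act on DNA directly, was the member with the lowest unadjusted p in any comparison. It was counted at 35.9, 59.9 and 49.2 CPM in D4, D5 and D6, at 39.3, 28.7 and 31.5 CPM in W1, W2 and W4, and at 40.2, 39.9 and 49.1 CPM in W6, W7 and W8. Every Han BB ewe was below every Han ++ ewe, as in 4.59% of all tested rows, though W1 and W7 were near each other, and with SMAD3.1 added the groups overlapped, at 43.3 CPM in W1 against 42.8 in W6 and 42.0 in W7. In the SMAD3 row only D4 among the Dorset ewes fell within the Han BB range.

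The mean of SMAD3 was 48.3 ± 12.0 CPM (SD, n = 3) in Dorset, 33.2 ± 5.5 in Han BB and 43.1 ± 5.2 in Han ++. The log2 fold change was -0.54 (SE 0.27) for Han BB against Dorset, with an unadjusted p of 0.0689 and an adjusted p of 0.977 by edgeR, and -0.38 (SE 0.27) for Han BB against Han ++, with an unadjusted p of 0.191. The value against Dorset depended on single libraries, at -0.72 (unadjusted p = 0.0226) without D4 and -0.36 (0.246) without D5. With a term for W4 and D6 this value also had an edgeR unadjusted p under 0.05, but not with W4 and D6 left out. Its adjusted p ranged from 0.433 to 1.00 over all alternatives. The ratio of SMAD3 to SMAD2 reads within a library, taken with the suffixed row added, does not depend on the library size. It ran from 0.262 to 0.419 in Dorset, from 0.214 to 0.269 in Han BB and from 0.275 to 0.446 in Han ++. Han BB lay below Han ++ in this ratio, with W1 just below W6, although the CPM of the added SMAD3 rows overlapped. How often such ratios separate was not measured.

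SMAD4, the partner of both branches, showed no order among the groups. D4 had 71.5, D5 164 and D6 128 CPM, W1, W2 and W4 had 102, 99.1 and 145 CPM, and W6, W7 and W8 had 114, 134 and 99.8 CPM. The lowest and the highest value were both from Dorset ewes, and the means of the 3 groups were 121, 116 and 116 CPM. The Han BB to Han ++ fold was 0.995 with a 95% interval from 0.60 to 1.65. When the reads of SMAD1 and SMAD5 were divided by those of SMAD2 and SMAD3, all rows of each gene added, a within-library measure of the balance of the branches, the means were 0.639 ± 0.064 in Dorset, 0.694 ± 0.130 in Han BB and 0.604 ± 0.050 in Han ++ (SD, n = 3), and the groups overlapped.

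**Figure D1:**
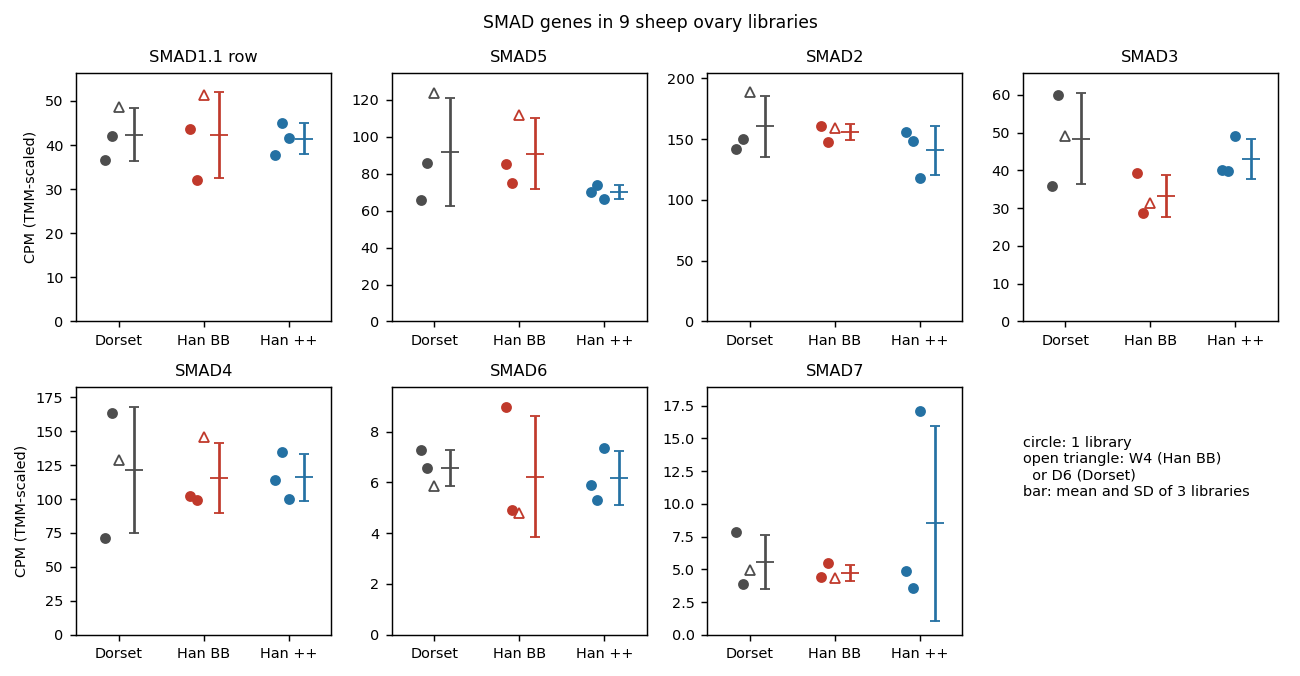
Read counts of the 7 SMAD genes per library, in CPM on an axis from 0, for the Dorset, Han BB and Han ++ ewes, with the mean and SD of 3 libraries beside the points and W4 and D6 as open triangles. The SMAD3 row is lower in every Han BB ewe than in every Han ++ ewe (not so with SMAD3.1 added), SMAD5 is higher, and the Han ++ mean of SMAD7 rests on W8.

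Both inhibitory SMADs had few reads, 70 to 189 per library for SMAD6 and 65 to 186 for SMAD7, so that counting error alone came to 9.52% of the mean SMAD6 count of 110 in Han BB. SMAD6, which acts mainly on the BMP branch, was at 7.28, 6.58 and 5.86 CPM in D4, D5 and D6, at 8.97, 4.90 and 4.81 CPM in W1, W2 and W4, and at 5.91, 5.29 and 7.35 CPM in W6, W7 and W8. Its group means lay between 6.18 and 6.57 CPM, and the spread within Han BB, where W1 stood high, was larger than any difference between groups.

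SMAD7, which blocks both branches, had 1 high library. It was at 7.86, 3.87 and 4.97 CPM in D4, D5 and D6, at 4.41, 5.46 and 4.35 CPM in W1, W2 and W4, and at 4.91, 3.57 and 17.1 CPM in W6, W7 and W8. W8 alone set the direction of both comparisons with Han ++. With it, the log2 fold change was 0.61 for Han ++ against Dorset (SE 0.56, unadjusted p = 0.297) and -0.84 for Han BB against Han ++ (SE 0.56, unadjusted p = 0.162). Without it, the values were -0.35 and 0.15. The second highest value was that of D4, and W8 and D4 were the 2 shallowest libraries and those with the largest shares of LOC101101865. With the row LOC101101865 left out, the value of Han BB against Han ++ was -0.82. The part of depth was not tested.

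ID1, a direct target of BMP-activated SMADs, had its highest value in a Dorset ewe, at 48.1 CPM in D4, beside 25.3 in D5 and 30.4 in D6. W1, W2 and W4 had 26.0, 31.4 and 19.9 CPM, and W6, W7 and W8 had 24.8, 19.1 and 27.3 CPM. The order of the means was Dorset (34.6 ± 12.0, SD, n = 3), Han BB (25.8 ± 5.7) and Han ++ (23.7 ± 4.2), and no neighbours in this order differed beyond their spread. Its log2 fold change was -0.42 for Han BB against Dorset (SE 0.32, unadjusted p = 0.206) and -0.54 for Han ++ against Dorset (SE 0.32, unadjusted p = 0.113). Without D4 these fell in size to -0.11 and -0.24. The value of Han ++ against Dorset was larger in size without D5, at -0.72 (edgeR unadjusted p = 0.0491, adjusted p = 0.9996). It was -0.62 without W4 and D6 (unadjusted p = 0.0664, adjusted p = 0.622). With a term for W4 and D6 it was -0.67 (unadjusted p = 0.0359, adjusted p = 0.363). Between the FecB genotypes the log2 difference was 0.12, with a 95% interval from -0.57 to 0.81.

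ID2 was the steadiest of the ID genes. D4, D5 and D6 had 69.7, 60.1 and 50.4 CPM, W1, W2 and W4 had 64.1, 53.1 and 63.0 CPM, and W6, W7 and W8 had 53.9, 59.3 and 51.5 CPM. The means were 60.1 in Dorset, 60.1 in Han BB and 54.9 in Han ++, with SDs from 7.28% to 16.1% of the mean. The Han BB to Dorset fold was 1.00 with a 95% interval from 0.70 to 1.44, and the fold of Han BB to Han ++ was 1.09 (0.76 to 1.57).

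ID3, often induced together with ID1, varied more within groups than between them. It stood at 60.3, 42.9 and 24.8 CPM in D4, D5 and D6, at 44.4, 31.8 and 17.5 CPM in W1, W2 and W4, and at 31.3, 29.5 and 46.1 CPM in W6, W7 and W8. D6 and W4 were the lowest of the 9 libraries, and D4 and W8 the highest. For ID3 the log2 fold change was -0.45 for Han BB against Dorset (SE 0.41, unadjusted p = 0.291), -0.26 for Han ++ against Dorset and -0.19 for Han BB against Han ++. The last turned to 0.09 when W4 and D6 were left out. Leaving them out made the value of Han ++ against Dorset larger in size, at -0.53 (edgeR unadjusted p = 0.0904, adjusted p = 0.676). Without D4 the value of Han ++ against Dorset was 0.066.

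**Figure D2:**
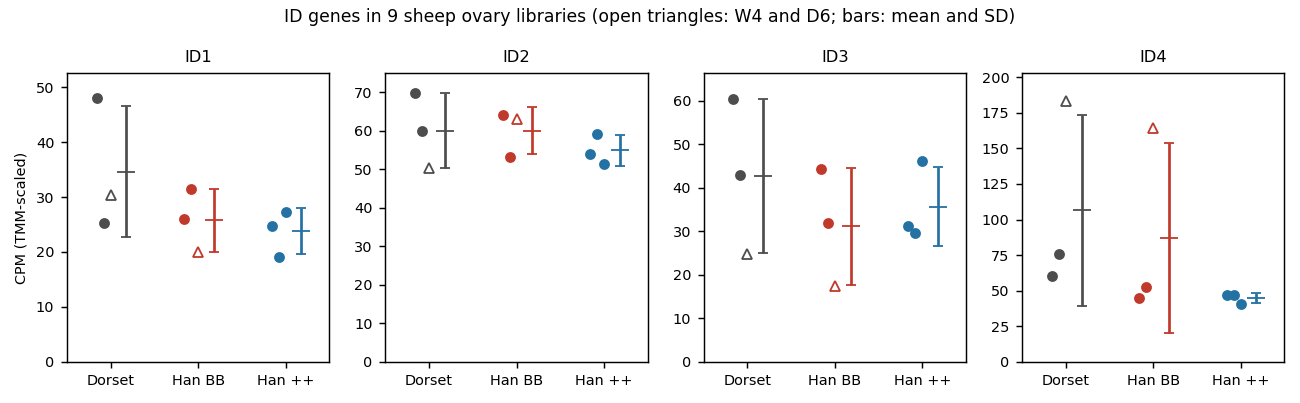
Read counts of ID1, ID2 and ID3, with the related gene ID4, per library in CPM on an axis from 0, with the mean and SD of the 3 libraries of each group and W4 and D6 as open triangles. The groups overlap for ID1, ID2 and ID3, D4 is highest for ID1 and ID3, and ID4 is far higher in W4 and D6 (164 and 183 CPM) than in the other 7 libraries.

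In Han BB against Dorset, 10 of 10 genes had a log2 fold change below 0, with a median of -0.07, where 50.6% of all tested rows were below 0 and their median was -0.01. Most of these values were near 0, and the sign of SMAD1.1, SMAD2, SMAD4, SMAD5, SMAD6, SMAD7 and ID2 turned under at least 1 alternative, which left SMAD3, ID1 and ID3 below 0 under each alternative run. In Han ++ against Dorset, 9 of 10 were below 0 with a median of -0.15, where 55.9% of all rows lay below 0, SMAD7 was the exception, and the sign of SMAD1.1, SMAD3, SMAD4, SMAD7 and ID3 turned under at least 1 alternative. These comparisons share the 3 Dorset ewes. In Han BB against Han ++ 6 of 10 were above 0 with a median of 0.02, where 53.4% of all rows lay above 0, and the sign of SMAD1.1, SMAD4, SMAD6, SMAD7, ID1 and ID3 turned under at least 1 alternative.

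**Figure D3:**
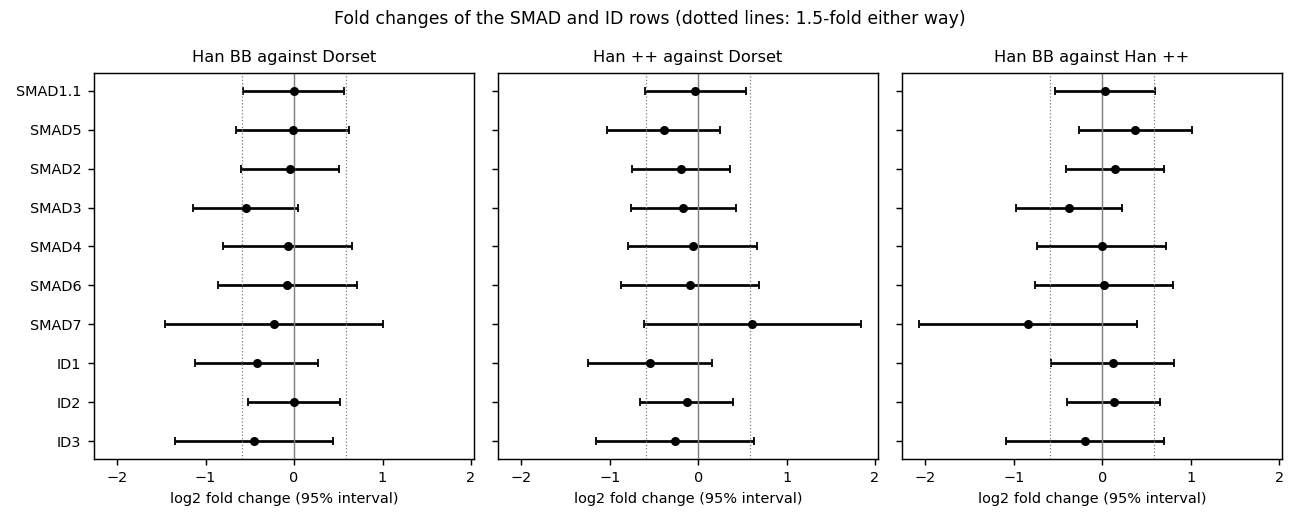
Log2 fold changes of the 10 genes in the 3 comparisons, with 95% intervals from the edgeR fit and dotted lines at 1.5-fold either way. Every interval includes 0, SMAD3 in Han BB against Dorset comes nearest to leaving it out (-1.14 to 0.05), and the interval of SMAD7 is the widest.

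W4, a Han BB ewe, and D6, a Dorset ewe, lay together above all the other libraries for SMAD1.1 (51.4 and 48.6 CPM against 32.0 to 44.9) and SMAD5 (112 and 124 CPM against 65.9 to 85.9), and below all the others for ID3 (17.5 and 24.8 CPM against 29.5 to 60.3). SMAD9, the remaining BMP-activated SMAD, did not stand above the others in these ewes, at 12.5 and 13.8 CPM against 12.8 to 20.1. Of the members, 2 of 10 genes lay above and 1 below, where 18.6% and 17.2% of all tested rows did, so the members did so about as often as other rows. ID4, the remaining member of the ID family, was at 164 and 183 CPM in W4 and D6 and at 40.9 to 76.0 CPM in the others. It was lower in every Han ++ than in every Dorset ewe, as were 5.58% of all tested rows, with a log2 fold change of -1.24 (SE 0.54, edgeR unadjusted p = 0.0411, adjusted p = 0.924), and of -0.60 without W4 and D6.

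**Figure D4:**
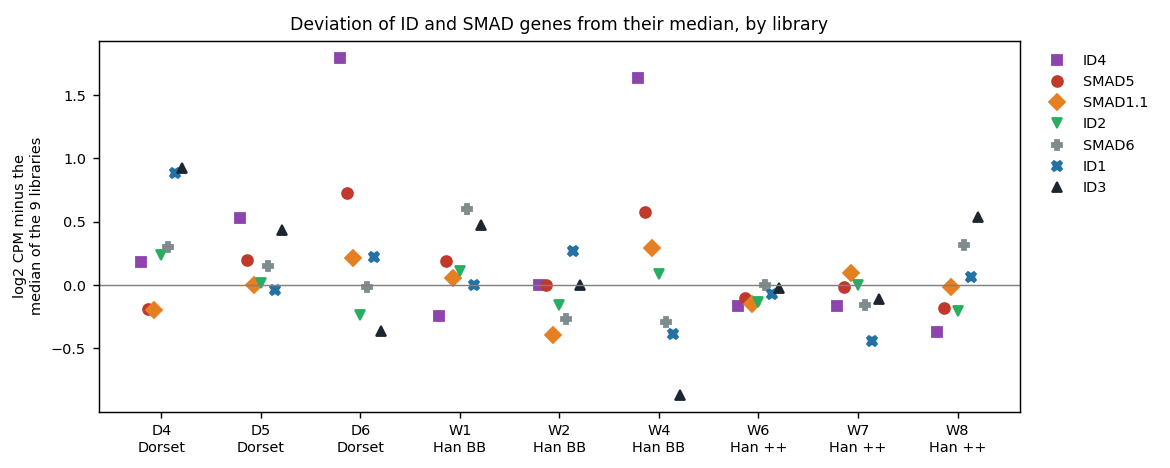
Log2 CPM of 7 ID and SMAD genes in each library, minus the median of that gene over the 9 libraries. In D6 and W4 the points of ID4 and SMAD5 lie above 0 and those of ID3 below, while in D4 ID1 and ID3 are the highest points.

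In all, 6 pairs of genes that BMP signals induce were compared across libraries, on log2 CPM. The comparison was planned over all 9 libraries and also over the 7 other than W4 and D6. Because W4 and D6 stood apart, the coefficients over the 7 libraries are given first. ID1 and ID3 had the highest Pearson's r, at 0.73 (exact permutation p = 0.0589, adjusted over the 6 pairs 0.354), with Spearman's rho of 0.79 (exact permutation p = 0.0480, adjusted 0.144). ID1 and SMAD7 had the same rho of 0.79 and the same p, with an r of 0.43 (exact permutation p = 0.302). The pair of ID1 and SMAD6 had an r of 0.26 and that of ID2 and ID3 of 0.60 (exact permutation p = 0.613 and 0.158). None of the pairs passed after adjustment. Over all 9 libraries the r of ID1 and ID3 was 0.64 (exact permutation p = 0.0626, adjusted 0.375), and 0.41 without D4 and W7, the 2 farthest from the median of ID1. ID1 and SMAD7 had the lowest p of any pair over the 9 libraries, with a rho of 0.82 (exact permutation p = 0.0108, adjusted 0.0646) and an r of 0.44. On values centred on the group means, the r of ID1 and SMAD7 was 0.67 (exact permutation p = 0.0231, adjusted 0.139). That of ID1 and ID3 was 0.65 (exact permutation p = 0.167, adjusted 0.380). With D4 and W7 left out of the 9 libraries, the r of ID1 and SMAD7 was 0.25.

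The rows most like ID1 over the 9 libraries, among 15038 compared, were GMDS (Pearson's r 0.97), PDIA5 (0.97) and PPM1J (0.94). Those most like ID3 were the assembled locus XLOC_010651 (0.98), GET4 (0.98) and TCN2 (0.97), and those most like SMAD6 were PCDHB16 (0.94), ZNF48 (0.92) and the assembled locus XLOC_020671 (0.91). These are the highest of very many coefficients over few libraries that share depth and composition, and are given as a description.

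Upstream of the SMADs, BMPR1B, the gene of the FecB mutation, also had a pair of rows. The plain row held 0 to 8 reads and the BMPR1B.1 row 1352 to 4137 reads. In the latter, D4, D5 and D6 had 131, 116 and 160 CPM, W1, W2 and W4 had 169, 177 and 166 CPM, and W6, W7 and W8 had 195, 187 and 252 CPM. The 3 groups did not overlap, in the order Dorset, Han BB and Han ++. BMPR1B.1 had a log2 fold change of 0.64 for Han ++ against Dorset (SE 0.26, edgeR unadjusted p = 0.0310, adjusted p = 0.891), 0.33 for Han BB against Dorset (unadjusted p = 0.228) and -0.31 for Han BB against Han ++ (unadjusted p = 0.254, and -0.17 without W8). In that order 5.48%, 4.29% and 4.59% of all tested rows were separated in the same direction. Summed oviduct secretory markers were also higher in both Han groups than in Dorset, as given above. Most of that sum was OVGP1, at 999 of 1031 CPM in W1. Of 5 such markers tested, 4 had a log2 fold change above 0 in Han BB against Dorset and 5 in Han ++ against Dorset. The mean of PAX8 was 6.07 CPM in Han BB and 8.80 in Dorset. The Dorset mean rested on D4, as PAX8 was at 17.9, 5.90 and 2.57 CPM in D4, D5 and D6. In W1, W2 and W4 it was at 9.20, 5.88 and 3.14 CPM. The part of these markers was not tested. The counts say nothing of the allele or of the receptor's activity.

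Among 13 type I and type II receptors and co-receptors, 12 were tested and 0 passed in any comparison. ACVRL1, a BMP9 receptor of endothelium, was at 32.2, 33.2 and 17.6 CPM in D4, D5 and D6, at 19.4, 24.3 and 10.8 CPM in W1, W2 and W4, and at 14.0, 19.6 and 19.8 CPM in W6, W7 and W8. Its groups overlapped, with a log2 fold change of -0.61 for Han BB against Dorset (unadjusted p = 0.123, and -0.36 without W4). For Han ++ against Dorset the value of ACVRL1 was -0.64 (edgeR unadjusted p = 0.108, adjusted p = 0.9999). It was -0.88 without W4 and D6 (unadjusted p = 0.00608, adjusted p = 0.309) and -0.90 with a term for them (unadjusted p = 0.00241, adjusted p = 0.138). ACVR1 and ACVR1B, receptors of the BMP and the activin branch, had log2 fold changes of 0.37 in Han BB against Dorset and -0.54 in Han BB against Han ++ (unadjusted p = 0.191 and 0.265). The value of ACVR1 was 0.19 without W4, and that of ACVR1B was -0.33 without W4 and -0.31 without W8.

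Of 30 SMAD cofactors and regulators, 28 were tested and 0 passed. BAMBI, a decoy receptor that dampens BMP and TGF-beta signals and is itself induced by them, had the lowest unadjusted p of this list in both comparisons with Dorset. The BAMBI.1 row was at 32.1, 21.7 and 31.2 CPM in D4, D5 and D6, at 17.4, 9.58 and 19.3 CPM in W1, W2 and W4, and at 12.1, 11.8 and 12.9 CPM in W6, W7 and W8. Every Han ewe of either genotype was below every Dorset ewe, as was so in 4.5% (Han BB) and 5.58% (Han ++) of all tested rows. Its log2 fold change was -0.88 (SE 0.31, edgeR unadjusted p = 0.0179, adjusted p = 0.975) for Han BB and -1.21 (SE 0.32, unadjusted p = 0.00292, adjusted p = 0.576) for Han ++. The second was -1.13 without W4 and D6, and its adjusted p ranged from 0.105 to 1.00 over the alternatives. RBX1, a ubiquitin ligase subunit, had a log2 fold change of -0.51 in Han ++ against Dorset, ZNF423, a SMAD-binding zinc finger protein, stood at -0.58 in Han BB against Dorset, and PMEPA1, a TGF-beta-induced inhibitor, at -0.57 in Han BB against Han ++ (unadjusted p = 0.0797, 0.118 and 0.206). These values became -0.33 for RBX1 without D6, -0.16 for ZNF423 without D5, and for PMEPA1 -1.05 without W2, -0.31 without W4 and -0.10 without W8.

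**Figure D5:**
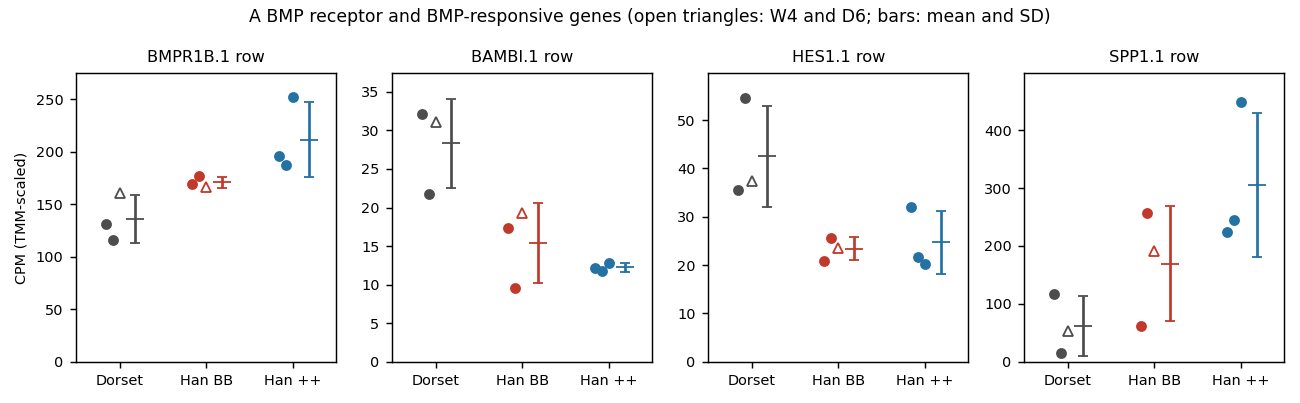
Read counts of the BMPR1B.1, BAMBI.1, HES1.1 and SPP1.1 rows per library in CPM on axes from 0, with the mean and SD of 3 libraries and W4 and D6 as open triangles. BAMBI.1 and HES1.1 are lower in every Han ewe than in every Dorset ewe, BMPR1B.1 is higher in every Han ewe, and SPP1.1 overlaps between Dorset and Han BB.

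Other genes known to respond to BMP had values in both directions. Of 18 listed, 16 were tested and 0 passed in any comparison, and the median log2 fold change was -0.29 in Han BB against Dorset (12 of 16 below 0) and -0.36 in Han ++ against Dorset (10 of 16), where all rows had medians of -0.01 and -0.06. HES1, a transcriptional repressor of the helix-loop-helix family, stood in the HES1.1 row at 35.5, 54.5 and 37.4 CPM in D4, D5 and D6, at 20.9, 25.7 and 23.5 CPM in W1, W2 and W4, and at 32.1, 21.7 and 20.3 CPM in W6, W7 and W8. All Han values were below all Dorset values, a separation seen in 4.5% (Han BB) and 5.58% (Han ++) of all tested rows, with log2 fold changes of -0.86 in Han BB and -0.78 in Han ++ (SE 0.29 and 0.29, edgeR unadjusted p = 0.0119 and 0.0198, adjusted p = 0.970 and 0.873). SPP1, which encodes the matrix protein osteopontin, had values in the other direction. Its SPP1.1 row was at 117, 14.8 and 53.2 CPM in D4, D5 and D6, at 61.1, 256 and 191 CPM in W1, W2 and W4 and at 223, 245 and 448 CPM in W6, W7 and W8, with a log2 fold change of 2.31 (SE 0.71, unadjusted p = 0.00760, adjusted p = 0.710) in Han ++ against Dorset. RUNX2, a transcription factor of bone and of luteinizing granulosa cells, was at 13.1, 13.2 and 12.6 CPM in W1, W2 and W4 and at 18.2, 18.1 and 26.8 CPM in W6, W7 and W8. The log2 difference between the genotypes was -0.70 (unadjusted p = 0.0945).

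Genes that respond to activin or TGF-beta, the targets of SMAD2 and SMAD3, mostly had log2 fold changes below 0 in Han BB. All 16 that were tested of 17 listed failed the test, and 15 of 16 were below 0 against Dorset and 13 of 16 below 0 against Han ++, with medians of -0.33 and -0.40, where 50.6% and 46.6% of all tested rows were below 0. These comparisons share the 3 Han BB ewes, W4 among them, and the counts were not taken without W4 and D6. In Han ++ against Dorset 10 of 16 were above 0, with a median of 0.07. Follistatin (FST), an inhibitor of activin, was at 28.7, 75.3 and 53.5 CPM in D4, D5 and D6, at 15.4, 36.9 and 20.3 CPM in W1, W2 and W4, and at 20.9, 27.8 and 43.5 CPM in W6, W7 and W8. FST had a log2 fold change of -1.12 in Han BB against Dorset (SE 0.44, edgeR unadjusted p = 0.0278, adjusted p = 0.975), although W2 lay above D4. FN1, fibronectin, was the exception in Han BB, at a log2 fold change of 0.78 against Dorset (0.22 without W2). It was higher in every Han ++ ewe (3426 to 4577 CPM) than in every Dorset ewe (1252 to 2729 CPM), as were 5.48% of all tested rows. Its log2 fold change in Han ++ against Dorset was 1.17 (edgeR unadjusted p = 0.0255, adjusted p = 0.891). CCN1, a matricellular protein gene found as LOC100037673, stood at a log2 fold change of -1.22 in Han ++ against Dorset (unadjusted p = 0.0679, and -0.81 without D5). In Han BB against Han ++, COL1A1, a collagen gene, was at -0.77 (edgeR unadjusted p = 0.158), and at -0.52 without W4 and D6. CDKN2B, an inhibitor of the cell cycle, was at -2.48 in that comparison (unadjusted p = 0.0435) on values of at most 1.38 CPM. The granulosa markers, which share INHBA with this list, had 7 of 8 members below 0 in Han BB against Dorset and 7 of 8 against Han ++. Against Dorset, 6 of 7 smooth muscle markers (median -1.19), which share TAGLN with this list, and 5 of 6 theca markers (median -0.83) were also below 0, with 3 and 1 at an unadjusted p under 0.05. The part of these cell types was not tested.

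Of 23 partners of ID proteins, 17 were tested and 0 passed. Among the E proteins, TCF4 was at 106, 175 and 160 CPM in D4, D5 and D6, at 183, 154 and 244 CPM in W1, W2 and W4, and at 159, 159 and 157 CPM in W6, W7 and W8. TCF12 was at 224, 256 and 424 CPM in D4, D5 and D6, at 289, 244 and 386 CPM in W1, W2 and W4, and at 270, 256 and 207 CPM in W6, W7 and W8. W4 was the highest of the 6 Han ewes for both, and D6 was above W4 for TCF12. TCF3 was at 10.2, 10.8 and 3.24 CPM in D4, D5 and D6, at 4.55, 6.58 and 4.75 CPM in W1, W2 and W4, and at 5.34, 7.19 and 6.16 CPM in W6, W7 and W8. HAND2, a helix-loop-helix factor of stromal cells in the reproductive tract, was higher in every Han BB ewe (5.48 to 7.12 CPM) than in any other ewe (2.21 to 5.06 CPM), with a log2 fold change of 0.94 (SE 0.41, edgeR unadjusted p = 0.0437, adjusted p = 0.975) against Dorset and 0.62 against Han ++ (unadjusted p = 0.155, and 0.33 without W8). Of all tested rows, 4.29% and 4.8% were separated upward in these comparisons. ELK1, an ETS family factor, was lower in every Han BB ewe (14.8 to 17.3 CPM) than in any other ewe (18.3 to 25.5 CPM), at -0.56 against Dorset and -0.44 against Han ++ (unadjusted p = 0.0504 and 0.112), where 4.5% and 4.59% of all rows were separated downward. TCF21 and ETS2 were at -0.50 and -0.40 in Han ++ against Dorset (unadjusted p = 0.0906 and 0.179). Without W4 and D6 they were at -0.62 and -0.28 (edgeR unadjusted p = 0.0200 and 0.326, adjusted p = 0.447 and 0.867). With a term for W4 and D6 they were at -0.67 and -0.26 (unadjusted p = 0.00475 and 0.288, adjusted p = 0.172 and 0.717).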

How the data were processed

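RNA-Seq of whole ovaries of 9 ewes was analysed. The authors mapped reads to Oar_v3.1 by TopHat with default parameters and deposited the unnormalized counts of uniquely aligned reads. Which program did the counting, and with what strand setting, is not given in the sources used here. A stranded kit is named in the methods but another in the labels, so genes overlapping on opposite strands are uncertain.

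Tests were two-sided and used the quasi-likelihood F-test of edgeR 4.0.16 (R 4.3.3; TMM, filterByExpr by group, 1 fit of all 9 libraries), with Benjamini-Hochberg adjustment over 16871 rows. CPM are TMM-scaled, are not divided by transcript length, and do not compare levels between genes. The prior count for log2 CPM was 0.5. The edgeR p values set a group difference against the spread between ewes within groups, 3 per group, as estimated in the fit of all 9 libraries. Those of correlations come from exact permutation of the libraries, within groups for values centred on the group means. Intervals are at 95%, and counting error covers reads only.

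Gene symbols of 1512 genes had a second, suffixed row (as SMAD1.1), which held more reads in 592. The row with the most reads was used, a choice made after the rows were seen. SMAD7, ID4 and CCN1 were matched by gene number through a RefSeq table (ARS-UI_Ramb_v3.0), used for names only. The genes and lists (receptors, SMAD regulators, BMP-responsive, activin and TGF-beta responsive, ID partners, cell type markers) were chosen with earlier results of these data known. Named from each list were the 2 lowest unadjusted p values per comparison, and the E proteins and further comparisons of a named gene were added after their values were seen. For ID1, ID3 and SMAD6 the 3 rows of highest Pearson's r with a mean of at least 1 CPM were named.

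Alternatives were DESeq2 1.42.0, its size factors in edgeR, limma 3.58.1 voom with quality weights, no filter, 2 groups only, no fold threshold, leaving out each library, leaving out W4 and D6, and a term for them. Summing suffixed rows and leaving out LOC101101865 were added after seeing the data. Scripts were tested on simulated data. Figures used matplotlib 3.10.9 in Python 3.11.15.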

Additional observations from a re-analysis of the deposited data

How the results depend on the processing

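None of the 10 SMAD and ID genes was called in any comparison or in the test of any difference, under any alternative that was run. No paired analysis was possible because any pair of groups shares at most 1 number in the sample titles (W4 with D4, and W6 with D6), and these are different ewes. Counts of all rows called moved more. The count for Han BB against Dorset was 0, and it was 29 with DESeq2, 2 without the filter on low counts, 2 without W4 and D6, 1 with a term for them, and 0 to 1 when 1 library was left out (1 without W4). In Han ++ against Dorset it was 1, and it became 65 with DESeq2, 0 with limma voom, 11 without the filter, 0 in a fit of 2 groups only, 22 without W4 and D6, 78 with a term for them, and 0 to 5 when 1 library was left out (5 without W4 and 0 without each of the other libraries). For the comparison of FecB genotypes it was 0, and 2 with DESeq2 and 2 with limma voom. The cause of these shifts was not tested.

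The log2 fold change of Han BB against Dorset turned its sign under an alternative for 8 genes, all short of the threshold in every setting. SMAD1.1 (-0.0025) went to 0.0068 with DESeq2's size factors, 0.0072 with DESeq2, 0.0098 without the filter, 0.0016 with suffixed rows summed, 0.012 without LOC101101865 and -0.19 to 0.17 with 1 library left out. SMAD2 (-0.043) went to 0.069 without W4 and D6 and -0.13 to 0.10 with 1 library left out. SMAD4 (-0.069) went to -0.34 to 0.21 with 1 library left out. SMAD5 (-0.018) went to 0.066 without W4 and D6, 0.0034 with a term for W4 and D6 and -0.22 to 0.27 with 1 library left out. SMAD6 (-0.074) went to 0.14 with limma voom, 0.00070 without W4 and D6 and -0.43 to 0.081 with 1 library left out. SMAD7 (-0.23) went to 0.047 with limma voom and -0.42 to 0.097 with 1 library left out. ID2 (-0.00048) went to 0.011 with DESeq2's size factors, 0.013 with DESeq2, 0.012 with limma voom, 0.024 without the filter, 0.0088 with a term for W4 and D6, 0.017 without LOC101101865 and -0.098 to 0.12 with 1 library left out. ID4 (-0.29) went to -1.16 to 0.38 with 1 library left out.

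The log2 fold change of Han ++ against Dorset turned its sign under an alternative for 5 genes, all short of the threshold in every setting. SMAD1.1 (-0.033) went to 0.073 without W4 and D6, 0.098 with a term for W4 and D6 and -0.13 to 0.073 with 1 library left out. SMAD3 (-0.17) went to -0.35 to 0.0072 with 1 library left out. SMAD4 (-0.062) went to 0.046 with a term for W4 and D6 and -0.34 to 0.21 with 1 library left out. SMAD7 (0.61) went to -0.35 to 0.97 with 1 library left out. ID3 (-0.26) went to -0.54 to 0.066 with 1 library left out.

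The log2 fold change of Han BB against Han ++ turned its sign under an alternative for 6 genes, all short of the threshold in every setting. SMAD1.1 (0.031) went to -0.040 with limma voom, -0.14 without W4 and D6, -0.11 with a term for W4 and D6 and -0.14 to 0.21 with 1 library left out. SMAD4 (-0.0067) went to 0.0039 with DESeq2's size factors, 0.0055 with DESeq2, 0.0041 without the filter, 0.013 without LOC101101865 and -0.21 to 0.13 with 1 library left out. SMAD6 (0.015) went to -0.35 to 0.17 with 1 library left out. SMAD7 (-0.84) went to -1.19 to 0.15 with 1 library left out. ID1 (0.12) went to -0.036 to 0.27 with 1 library left out. ID3 (-0.19) went to 0.16 with limma voom, 0.095 without W4 and D6, 0.088 with a term for W4 and D6 and -0.54 to 0.094 with 1 library left out.

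The correlation of ID1 and ID2 over 9 libraries (0.18) turned to -0.10 as Spearman's rho and -0.69 without the 2 libraries farthest from the median of ID1, and that of ID2 and ID3 (0.31) to -0.27 without the 2 farthest for ID2. DESeq2's size factors moved no library by more than 0.04 on the log2 scale. With 3 ewes per group, the 95% intervals of SMAD1.1, SMAD2 and ID2 reach about 1.5-fold either way and those of SMAD7 and ID3 well beyond it. Differences within these intervals are not excluded. The intervals are for single genes and do not give the limit of the test, which was adjusted over all tested rows. Larger differences also failed it, as BAMBI.1 and SPP1.1 in Han ++ against Dorset (log2 fold changes of -1.21 and 2.31). SMAD6 and SMAD7 are limited by their read counts as well. Reads of stretches that SMAD or ID genes share with each other were counted only where they aligned uniquely.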

Other observations

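SMAD9, which like SMAD1 and SMAD5 is activated by BMP receptors, stood at 12.8, 16.8 and 13.8 CPM in D4, D5 and D6, at 16.1, 13.6 and 12.5 CPM in W1, W2 and W4, and at 14.6, 15.3 and 20.1 CPM in W6, W7 and W8. All groups overlapped, and Han BB differed from Han ++ by -0.25 on the log2 scale (edgeR unadjusted p = 0.383). Of the rows set aside, SMAD5.1 was at 5.43 CPM in D4 and at 0.067 to 1.29 CPM in the other libraries, and SMAD3.1 was at 1.26 to 3.94 CPM, lowest in D4. Both rows therefore set D4 apart, in opposite directions, on at most 83 reads.

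The ratio of ID1 to ID2 reads was 0.572 ± 0.137 in Dorset, 0.438 ± 0.140 in Han BB and 0.437 ± 0.106 in Han ++, and that of ID3 to ID2 was 0.691 ± 0.188, 0.523 ± 0.218 and 0.658 ± 0.210 (SD, n = 3). All of these overlapped.

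Among the cell type lists, ciliated cell markers had sums of 102 to 307 CPM in Dorset, of 154 to 743 in Han BB and of 257 to 496 in Han ++, with 10 and 11 of 11 tested members above 0 against Dorset. Ranges in the same order of groups were 678 to 902, 499 to 888 and 641 to 952 CPM for granulosa markers, of which 8 of 10 had a row, and 350 to 1830, 402 to 1794 and 879 to 1546 for luteal markers. Smooth muscle markers ran from 4318 to 9653, 4640 to 6833 and 4886 to 7889 CPM, and stromal markers from 7543 to 15497, 8850 to 12636 and 12357 to 15160. Immune markers ran from 228 to 790, 528 to 831 and 383 to 556, and oocyte markers from 15.5 to 23.8, 13.6 to 23.7 and 8.09 to 17.9.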
